A study of Mus musculus with 6 samples.

Results

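The 10 genes described here encode Notch receptors (Notch1, Notch2, Notch3, Notch4), ligands (Jag1, Jag2, Dll1) and target genes (Hes1, Hey1, Heyl), and were taken by gene name from a table of 54433 genes. Each name matched 1 row. Messenger RNA was sequenced from 6 libraries of MC3T3-E1, a mouse cell line labelled as osteoblasts, the cells that form bone. The 3 WT libraries are of wild-type cells kept in Dulbecco's modified Eagle medium. The 3 FR libraries came from cells of the line that had been adapted by continuous exposure to fluoride in a gradient of 10 ppm, were resistant to 30 ppm, and are labelled as exposed to a gradient of 30 ppm. Both groups were grown with fetal bovine serum, penicillin and streptomycin. No label states that the 3 libraries of a group are separate cultures, or whether FR is 1 clone, and a p-value here measures no more than their spread, which may be technical. Adaptation and exposure to fluoride cannot be told apart in this design.

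Notch signalling passes between touching cells. A ligand of the Jagged or Delta type on one cell binds a Notch receptor on its neighbour, the receptor is cut by ADAM proteases and then by gamma-secretase, and the freed intracellular part enters the nucleus, where it joins the DNA-binding protein RBPJ and turns on genes of the HES and HEY families. In the osteoblast lineage the pathway is known for acting on the balance between progenitor maintenance and maturation. Transcript levels measured here do not show whether receptors were cut or active.

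Of the 10 genes, Notch1, Notch2, Notch3, Jag1 and Dll1 were lower in FR than in WT, and none was higher. Notch1 and Notch3 mRNA were reduced to 5.84% and 6.01% of the WT mean, Dll1 to 16.2%, Jag1 to 50.1% and Notch2 to 65.5%. Hes1 was at 97.7% of its WT mean, with overlapping groups. Notch4 and Jag2 were near the detection limit, and Hey1 and Heyl were listed at 0 in all 6 libraries.

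With edgeR's quasi-likelihood test and Benjamini-Hochberg adjustment over 14889 genes, 6 of the 10 genes had enough counts to be tested, and 5 of these 6 passed the threshold of 0.05 as lower in FR, where 35.5% of all tested genes passed as lower and 34.6% as higher. Notch3 and Dll1 passed the count filter through the WT libraries alone, since no FR library reached the filter's level for them, so they could enter the test only by being higher in WT. Notch1, Notch2, Jag1 and Hes1 passed it in all 6 libraries. The CPM ranges of the groups did not overlap, with FR lower, for these 5 genes and for 36.6% of all tested genes. The median log2 fold change of all tested genes was 0.00. Among the genes that passed, changes of at least 2-fold downwards were found for Notch1, Notch3 and Dll1, and for 11.4% of all tested genes. The estimates for Notch1 and Notch3 were beyond 8-fold downwards. Of all tested genes, 3.67% passed the threshold and were at least 8-fold lower in FR.

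**Figure D1:**
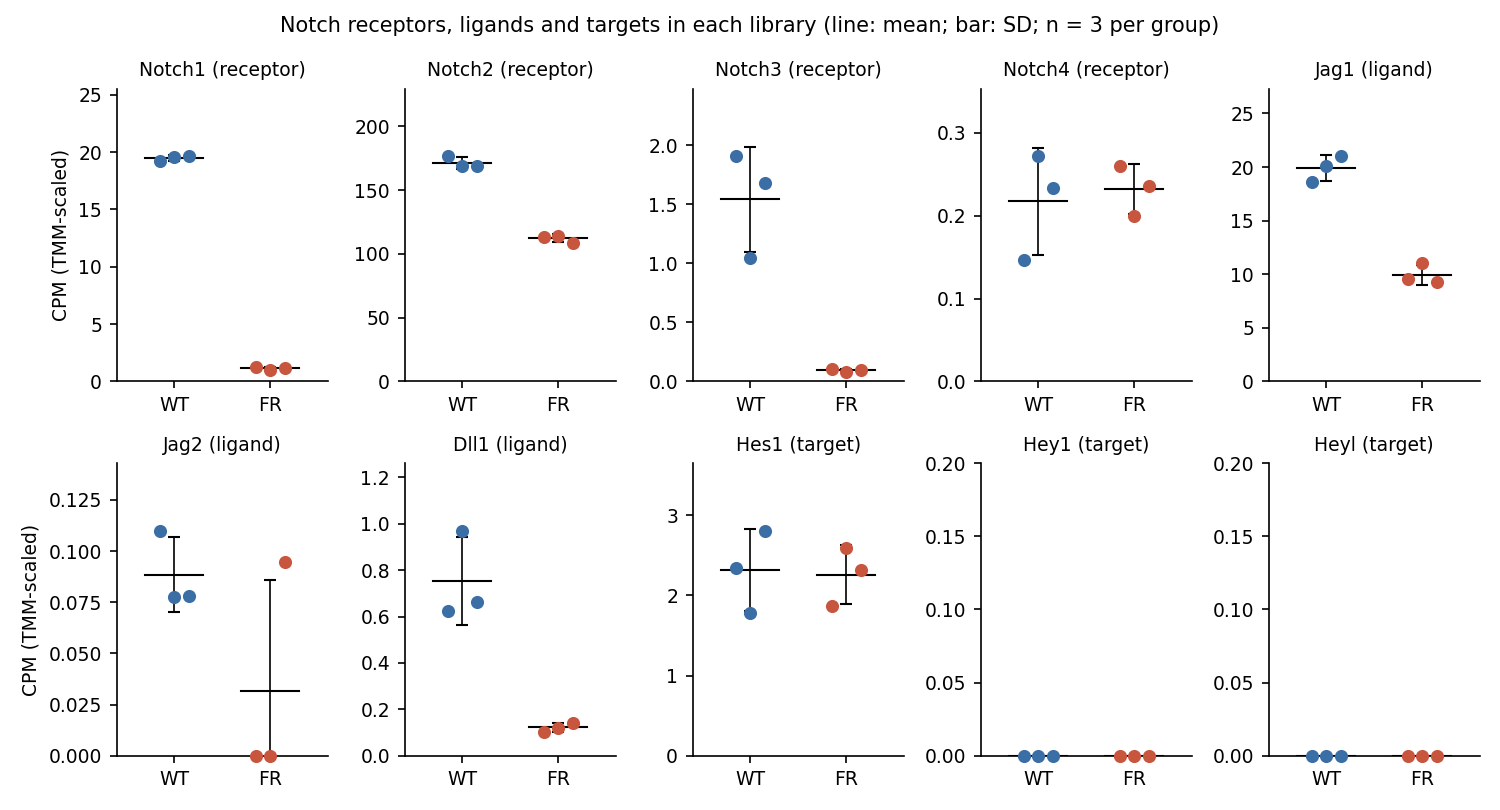
Counts scaled to library size with TMM factors (CPM, vertical axis, linear and starting at 0, its own range in each panel) of the 10 genes in the 3 WT libraries (blue points) and the 3 FR libraries (red points), with the group mean as a line and the SD as a bar. Notch1, Notch2, Notch3, Jag1 and Dll1 show separated groups, Notch4, Jag2 and Hes1 overlapping ones, and Hey1 and Heyl lie at 0.

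Notch1 (ENSMUSG00000026923, mouse chromosome 2) encodes the receptor best known from cell fate decisions in many tissues. In CPM, counts scaled to library size, it stood at 19.2, 19.6 and 19.6 CPM in the WT libraries and at 1.24, 0.983 and 1.20 CPM in the FR libraries. The lowest WT library was far above the highest FR library, and the WT libraries differed among themselves by little. The log2 fold change was −4.10 ± 0.13 SE (edgeR adjusted p = 1.32e-21), a 17.1-fold difference, and 1.38% of tested genes had a lower log2 fold change. The counts behind it were about 503 to 524 per WT library and 24 to 25 per FR library. The gene overlaps 0610009E02Rik, a noncoding gene on the opposite strand, whose mean count was 34.2 in WT and 6.10 in FR. The labels do not say that strand was kept, so reads of the overlapping part cannot be told apart.

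Notch3 (ENSMUSG00000038146, chromosome 17), a receptor known for its part in smooth muscle cells and pericytes, was low in WT and close to the detection limit in FR. The WT libraries held 52, 27 and 43 counts, and each FR library 2. In CPM these were 1.91, 1.05 and 1.68 in WT and 0.104, 0.0799 and 0.0945 in FR. All FR libraries lay below all WT libraries, and WT2 lay well below the other two WT libraries. Summed over the libraries of a group, WT was 16.9-fold higher, with an exact 95% counting interval from 7.55 to 47.0. The edgeR log2 fold change was −4.00 ± 0.47 SE (adjusted p = 1.45e-08).

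Notch2 (ENSMUSG00000027878, chromosome 3) encodes the receptor whose truncating mutations cause a human disorder of bone loss, Hajdu-Cheney syndrome. It was present at 176, 169 and 169 CPM in WT and at 113, 114 and 108 CPM in FR. The groups did not overlap, and the spread within each was small beside the gap between them. The log2 fold change was −0.61 ± 0.03 SE (edgeR adjusted p = 4.12e-16), a 1.53-fold difference. The change was much smaller than those of Notch1 and Notch3, but it rests on at least 2183 counts in every library.

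Notch4 (ENSMUSG00000015468, chromosome 17), a receptor of endothelial cells, was counted 4, 7 and 6 times in the WT libraries and 5 times in each FR library and was not tested. The groups overlapped at 0.217 ± 0.0642 CPM in WT and 0.232 ± 0.0302 CPM in FR (SD, n = 3 each). The ratio of WT to FR was 0.943, with an exact 95% counting interval from 0.443 to 2.03, which still includes a difference of 2-fold in either direction.

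The level of the receptors was compared per length as TPM, the count divided by the deposited gene length and scaled to the library. Notch2 held most of the receptor mRNA in both groups, at 32.9 ± 1.19 TPM in WT and 20.6 ± 0.601 TPM in FR, which was above 67.1% of tested genes in WT and above 57.3% in FR. Notch1 stood at 4.14 ± 0.00966 TPM in WT and 0.232 ± 0.0302 TPM in FR. Summed over the 4 receptors, the level was 37.4 ± 1.25 TPM in WT and 20.9 ± 0.603 TPM in FR (SD, n = 3 each).

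The share of each receptor in the summed receptor level does not depend on how libraries are scaled to each other. Notch1 made up 10.6%, 11.3% and 11.3% of the summed per-length receptor level in WT and 1.19%, 0.939% and 1.20% in FR. Notch2 made up 88.0%, 87.8% and 87.4% in WT and 98.3%, 98.7% and 98.3% in FR. Notch3 went from 1.03% ± 0.281 to 0.107% ± 0.0146, and Notch4 from 0.178% ± 0.0558 to 0.325% ± 0.0443 (SD, n = 3 each). The level of Notch4 itself overlapped between the groups, at 0.217 CPM in WT and 0.232 CPM in FR, on 4 to 7 counts per library. Its higher share thus stands beside a lower summed receptor level in FR, not a higher Notch4 level. For each of the 4 receptors the shares of the groups did not overlap, and the exact two-sided permutation test gave p = 0.1, the smallest that 3 against 3 libraries can give. The exact test can therefore not pass 0.05 in this design. In FR the order of the lesser receptors was Notch1, Notch4, Notch3, with no overlap between neighbours, while in WT it was Notch1, Notch3, Notch4, also without overlap. The places of Notch4 and Notch3 in FR rest on 5 against 2 counts in each library, too few to settle their order.

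**Figure D2:**
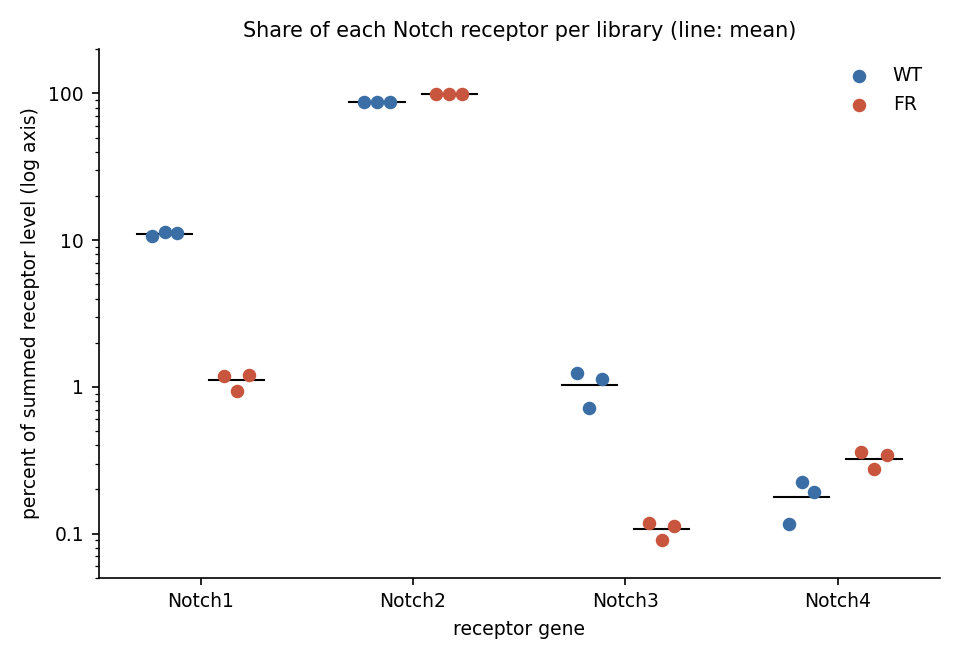
Percent of the summed per-length level of the 4 receptors held by each receptor gene (vertical log axis), with 1 point per library (blue WT, red FR) and the mean as a line. Notch1 lies between 10.6% and 11.3% in WT and between 0.939% and 1.20% in FR, while Notch2 lies near the top in both groups.

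The promoters of the 3 receptors that fell are shown because these genes moved together by very different amounts. The sequences are the 250 bases before the transcription start in RefSeq, build GRCm38.p6, read 5′ to 3′ along the gene, while the counts were made on GRCm39. Capitals mark GC boxes, GGGCGG on either strand, a motif bound by SP1 and related factors. Notch1 lies at chr2:26503823-26504072 on the minus strand, Notch2 at chr3:98013288-98013537 on the plus strand and Notch3 at chr17:32166891-32167140 on the minus strand.
Notch1: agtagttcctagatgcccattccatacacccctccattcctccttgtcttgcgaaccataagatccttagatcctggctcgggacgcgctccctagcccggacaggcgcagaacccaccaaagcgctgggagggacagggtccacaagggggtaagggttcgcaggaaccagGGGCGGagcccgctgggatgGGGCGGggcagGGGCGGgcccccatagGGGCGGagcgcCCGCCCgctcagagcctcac
Notch2: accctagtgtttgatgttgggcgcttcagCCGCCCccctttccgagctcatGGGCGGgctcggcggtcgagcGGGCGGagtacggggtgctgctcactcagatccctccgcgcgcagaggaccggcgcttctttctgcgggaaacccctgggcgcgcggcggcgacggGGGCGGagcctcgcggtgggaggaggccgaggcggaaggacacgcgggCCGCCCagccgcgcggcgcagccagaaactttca
Notch3: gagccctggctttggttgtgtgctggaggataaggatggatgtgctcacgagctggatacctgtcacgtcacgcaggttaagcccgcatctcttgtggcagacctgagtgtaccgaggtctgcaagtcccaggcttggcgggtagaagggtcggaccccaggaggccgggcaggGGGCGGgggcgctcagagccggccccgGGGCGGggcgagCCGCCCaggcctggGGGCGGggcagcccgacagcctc
The Notch1 and Notch2 windows each held 5 GC boxes and the Notch3 window 4, and 32.7% of 32851 windows of this length held at least 1. Their GC content was 66.0%, 72.0% and 68.8%, against a median of 52.4% over all windows. None held TATAAA on either strand, which 12.4% of windows did. The windows of Jag1 and Dll1, which also fell, held 0 GC boxes, as did that of Notch4. The window of Jag2, which had too few counts for the test, held 5. Whether GC boxes go along with a fall was not tested. TGGGAA, the core of the site that RBPJ binds, was searched on both strands in the windows of the 7 members that the table holds, and was in none of them, while 21.6% of all windows held it. This says only that these letters are not in these windows. Hes1, Hey1 and Heyl had no window.

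Genes that lie beside these members were also read. Among the 20 tested genes on each side of Notch1, in the gene order of the GRCm38 annotation, the median log2 fold change was −0.15, and 5 of the 40 were at least 2-fold lower, a share near the 11.4% of all tested genes. None of the 40 fell by as much as Notch1. Around Notch3 the median was −0.09 and 1 of 40 fell by as much, and around Dll1 the median was 0.07 and 1 of 40 fell by as much. Around Jag1 the median was −0.29 and 7 of 40 fell by as much, and around Notch2 it was −0.16 and 11 of 40 fell by as much, the falls of these 2 genes being smaller. The neighbours at least 2-fold lower were 6 of 40 around Notch3 and around Dll1, and 7 of 40 around Notch2, Jag1 and Jag2. They were 5 of 40 around Notch4, 11 of 40 around Hes1, 2 of 40 around Heyl and 5 of 28 around Hey1.

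Jag1 (ENSMUSG00000027276, chromosome 2) encodes jagged 1, a membrane-bound ligand that is expressed by osteoblasts and known for its part in their contact with haematopoietic cells. It stood at 18.6, 20.1 and 21.0 CPM in WT and at 9.56, 11.0 and 9.30 CPM in FR. The groups were apart, with FR at about the middle between 0 and the WT level. The log2 fold change was −0.99 ± 0.09 SE (edgeR adjusted p = 2.86e-11).

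Dll1 (ENSMUSG00000014773, chromosome 17) encodes delta-like 1, a ligand needed for somite patterning. The WT libraries held 17, 25 and 17 counts and the FR libraries 2, 3 and 3, or 0.623, 0.970 and 0.663 CPM against 0.104, 0.120 and 0.142 CPM. The groups did not overlap, with WT2 the highest library and all FR libraries at or below 3 counts. Summed counts were 6.13-fold higher in WT, with an exact 95% counting interval from 2.92 to 14.9, and the edgeR log2 fold change was −2.57 ± 0.50 SE (adjusted p = 5.12e-05). Jag2 (ENSMUSG00000002799, chromosome 12), the other jagged ligand, was counted 3, 2 and 2 times in the WT libraries and 0, 0 and 2 times in the FR libraries. It was not tested, and the ratio of WT to FR was 2.91 with an exact 95% counting interval from 0.554 to 28.7.

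Jag1 was the main ligand mRNA of the 3 in both groups, at 7.14 ± 0.359 TPM in WT and 3.43 ± 0.288 TPM in FR. It held 94.0% ± 1.22 of the summed per-length ligand level in WT and 97.8% ± 0.987 in FR, and Dll1 held 5.55% ± 1.26 and 1.89% ± 0.364 (SD, n = 3 each). The groups did not overlap for either share (exact permutation p = 0.1, the smallest possible). The summed ligand level went from 7.60 ± 0.385 to 3.51 ± 0.272 TPM. The ratio of summed receptor to summed ligand TPM was 5.43, 4.73 and 4.66 in WT and 6.34, 5.52 and 6.12 in FR. It was higher in each FR library than in each WT library, but the lowest FR library lay close to the highest WT library (exact permutation p = 0.1).

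Hes1 (ENSMUSG00000022528, chromosome 16), a basic helix-loop-helix repressor and the best-known Notch target, stood at 2.35, 1.79 and 2.81 CPM in WT and at 1.87, 2.60 and 2.31 CPM in FR. The groups overlapped fully, with the lowest and the highest library both in WT. The log2 fold change was −0.02 ± 0.22 SE (edgeR adjusted p = 0.930). The ratio of WT to FR from summed counts was 1.01, with an exact 95% counting interval from 0.809 to 1.26, so a 2-fold change lies outside this interval, which covers counting error only. Hes1 rested on 36 to 72 counts per library. Hes1 is also controlled by other signals and oscillates in many cell types.

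Hey1 (ENSMUSG00000040289, chromosome 3) and Heyl (ENSMUSG00000032744, chromosome 4) encode repressors of the HEY family, which are induced by Notch in vessels and bone. Both were listed at 0 in all 6 libraries. The limit that a count of 0 allows, 3 counts, corresponds to between 0.110 and 0.117 CPM in the WT libraries and between 0.120 and 0.156 CPM in the FR libraries. No difference in these genes was detectable at this depth, and no fold is given.

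Across the 10 genes, the order of the per-length levels in WT was Notch2, Jag1, Notch1, Hes1, Dll1, Notch3, Notch4 and Jag2, followed by Hey1 and Heyl at 0, and of these neighbours only Dll1 and Notch3 had overlapping ranges, beside Hey1 and Heyl. In FR the order was Notch2, Jag1, Hes1, Notch1, Notch4, Dll1, Notch3 and Jag2. The genes after Notch1 had at most 5 counts in each FR library. Here the ranges of Jag1 and Hes1 overlapped, as did those of Notch4 and Dll1, of Notch3 and Jag2, and of Jag2 and the genes at 0. Notch1 went from the third to the fourth place, and Hes1, at 3.17 ± 0.696 TPM in WT and 2.97 ± 0.449 TPM in FR (SD, n = 3 each), stood above it in FR without overlap.

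**Figure D3:**
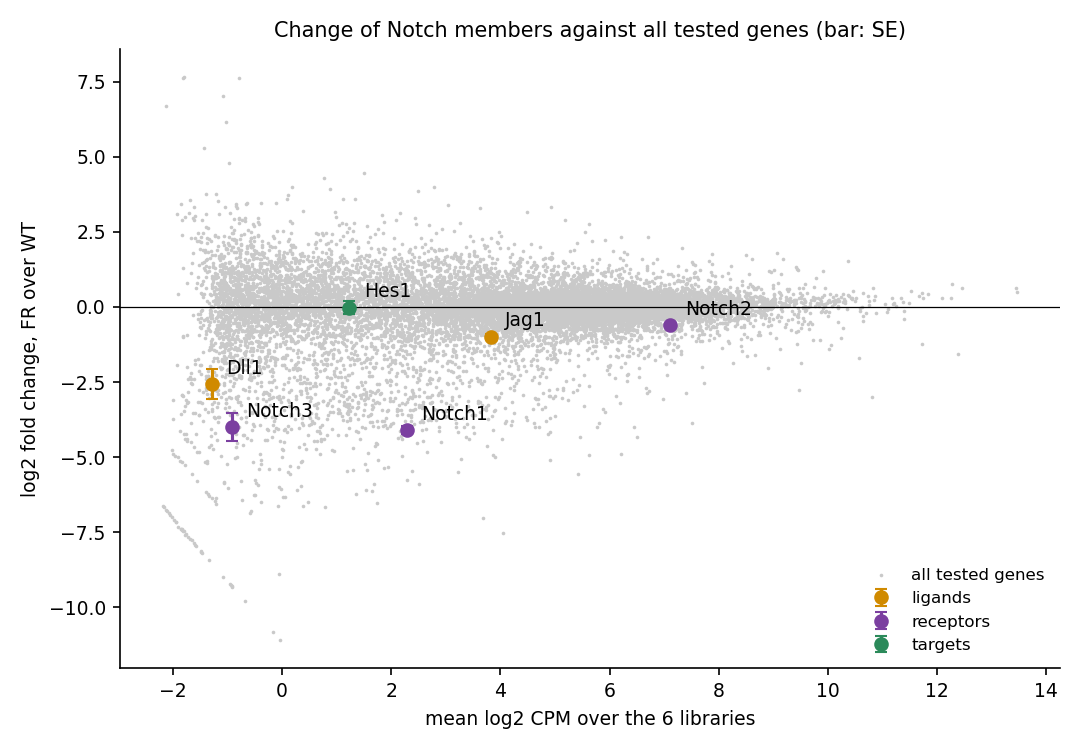
Log2 fold change of FR over WT (vertical axis) against the mean log2 CPM over the 6 libraries (horizontal axis) for all 14889 tested genes (grey) and the 6 tested members with their SE (purple receptors, orange ligands, green target). Notch1 lies at −4.10, with few genes of its level below it, and Hes1 lies on the zero line.

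The gene whose profile over the 6 libraries was nearest to that of Notch1, by the Euclidean distance of centred log2 CPM among 11299 genes with a mean of at least 1 CPM, was Man1c1, a mannosidase of the Golgi (distance 0.159, log2 fold change −4.01). Slfn2, of the Schlafen family, followed (0.178, −4.45), then the chemokine gene Cxcl12 (0.210, −3.99). These distances follow mainly from a like difference between the groups, and they are a description. No member rose, so no gene was sought for a rise.

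The other genes of the pathway were read from 8 lists with 90 genes, of which 75 were tested. Of these, 37 (49.3%) fell, 28 (37.3%) rose and 10 did not pass, where 35.5% of all tested genes were lower and 34.6% higher. In all, 86.7% were called against 70.1% of all tested genes, and the median log2 fold change was −0.11. These shares are not matched for expression level. With a filter at a mean of 1 CPM, 74 pathway genes were tested in place of 75, with 36 lower and 29 higher. Of all genes, 13131 were then tested in place of 14889, with 4895 lower and 4824 higher. The part of level in the higher share called was not tested. Falls of at least 2-fold were found for 9 of the 75 (12.0%), close to the 11.4% of all tested genes, and a rise of at least 2-fold for 1 (1.33%), against 7.4% of all tested genes. The counts of the lists by direction were the same with median-of-ratios factors and with library size alone.

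Of 5 tested genes for other proteins that bind Notch, 4 fell (80.0%, against 35.5% of all tested genes) and none rose (against 34.6%). One of the 4, Cntn1, passed the count filter through the WT libraries alone, so it could only be called lower. In this and the following groups, levels are means ± SD of 3 libraries per group. Ccn3, a matricellular protein that binds Notch1, fell to 14.8 ± 0.645 CPM in FR from 145 ± 5.28 in WT (edgeR adjusted p = 9.90e-30). Dlk1 and Dlk2, delta-like proteins that lack the receptor-activating domain, fell to 11.9 ± 1.01 CPM in FR from 25.8 ± 2.01 in WT and to 2.30 ± 0.350 CPM in FR from 5.89 ± 1.06 in WT. Mfap5 did not pass, at a log2 fold change of 0.62 ± 0.29 SE.

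Of 8 tested genes that ligands need for endocytosis, 4 fell, 3 rose and 1 did not pass (median −0.04). Over all tested genes, 35.5% were lower and 34.6% higher, so 70.1% were called. The ubiquitin ligase genes Neurl1a and Neurl1b, of the Neuralized family that acts on ligands, had the largest falls of the list. Neurl1a fell to 1.11 ± 0.0552 CPM in FR from 8.03 ± 0.281 in WT, and Neurl1b to 0.581 ± 0.0543 CPM in FR from 5.06 ± 0.724 in WT. Epn1, an endocytic adaptor, fell to 37.9 ± 5.09 CPM in FR from 74.2 ± 3.89 in WT. Mib1, a ligase that acts on Delta and Jagged ligands, rose to 139 ± 4.46 CPM in FR from 125 ± 2.58 in WT, a log2 fold change of 0.15 ± 0.03 SE. Its relative Mib2 rose to 16.5 ± 0.807 CPM in FR from 13.2 ± 0.462 in WT.

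Of 10 tested genes for receptor glycosylation, 8 fell and 2 rose (median −0.31), where 35.5% of all tested genes fell and 34.6% rose. Eogt, which adds N-acetylglucosamine to receptor repeats, fell to 9.47 ± 0.461 CPM in FR from 25.4 ± 0.0970 in WT. The Fringe genes Lfng and Rfng, whose enzymes extend O-fucose and shift the response between Delta and Jagged ligands, fell to 5.14 ± 0.867 CPM in FR from 9.70 ± 1.03 in WT and to 19.3 ± 0.458 CPM in FR from 33.0 ± 1.53 in WT. Poglut3, a glucosyltransferase gene, rose to 67.8 ± 1.13 CPM in FR from 54.6 ± 1.08 in WT.

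Of 10 tested genes for receptor proteolysis, 7 fell, 2 rose and 1 did not pass (median −0.25). The background was 35.5% of all tested genes lower and 34.6% higher. Ncstn, which encodes the gamma-secretase subunit nicastrin, fell to 51.4 ± 1.53 CPM in FR from 87.0 ± 0.775 in WT. Aph1b fell to 5.17 ± 0.384 CPM in FR from 9.42 ± 0.262 in WT, and Aph1c rose to 2.09 ± 0.761 CPM in FR from 0.709 ± 0.239 in WT. The products of both are alternative subunits of gamma-secretase, and the genes are near-identical copies between which reads can be misplaced. Of 11 tested genes of receptor turnover, 6 fell and 5 rose (median −0.17), none by as much as 2-fold. Here 54.5% were lower and 45.5% higher, against the same background. Dtx4, a Deltex ubiquitin ligase, rose to 79.4 ± 2.66 CPM in FR from 51.2 ± 1.50 in WT. The kinase gene Aak1 fell to 96.8 ± 2.33 CPM in FR from 139.6 ± 2.73 in WT, and Numbl, a relative of the Notch inhibitor Numb, to 26.0 ± 1.06 CPM in FR from 37.3 ± 1.56 in WT.

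In the nucleus, 2 of 9 tested genes for the activating complex fell, 5 rose and 2 did not pass (median 0.11), a share called of 77.8% against 70.1% of all tested genes. Rbpj, the DNA-binding partner of all 4 receptors, was among the 2 that fell, to 191 ± 1.27 CPM in FR from 332 ± 2.41 in WT. Its log2 fold change was −0.79 ± 0.03 SE (edgeR adjusted p = 6.45e-21). The other was the coactivator gene Maml2, which fell to 18.4 ± 1.77 CPM in FR from 28.4 ± 1.49 in WT, while Kat2a, a histone acetyltransferase gene, rose to 137 ± 2.36 CPM in FR from 101 ± 3.62 in WT. Of 19 tested corepressor genes, 11 rose, 3 fell and 5 did not pass (median 0.13). The share called, 73.7%, was near the background, and 57.9% rose against 34.6% of all tested genes. L3mbtl3, a partner of RBPJ in repression, rose to 97.6 ± 3.49 CPM in FR from 53.8 ± 0.845 in WT. Tle1, a Groucho-type corepressor of HES proteins, rose to 81.3 ± 1.92 CPM in FR from 49.0 ± 1.87 in WT, while Tle2 fell to 7.55 ± 1.08 CPM in FR from 13.5 ± 0.566 in WT.

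Of the other HES and HEY family and feedback genes, 3 of 10 were tested and all 3 fell (median −1.56), where 35.5% of all tested genes fell. Bhlhe41, a relative of the HES repressors with a part in the circadian clock, fell to 2.54 ± 0.499 CPM in FR from 22.0 ± 1.42 in WT. Its relative Bhlhe40 fell to 41.4 ± 1.19 CPM in FR from 70.6 ± 1.93 in WT, and Hes6 to 1.62 ± 0.254 CPM in FR from 4.78 ± 0.361 in WT. Hes6 is known to act against HES1, and these 3 genes were listed as relatives of the family, not as canonical targets. The canonical targets Hey2 and Nrarp were listed at 0 in all 6 libraries, and Hes5 had 2 counts in 1 WT library and 0 in the others.

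**Figure D4:**
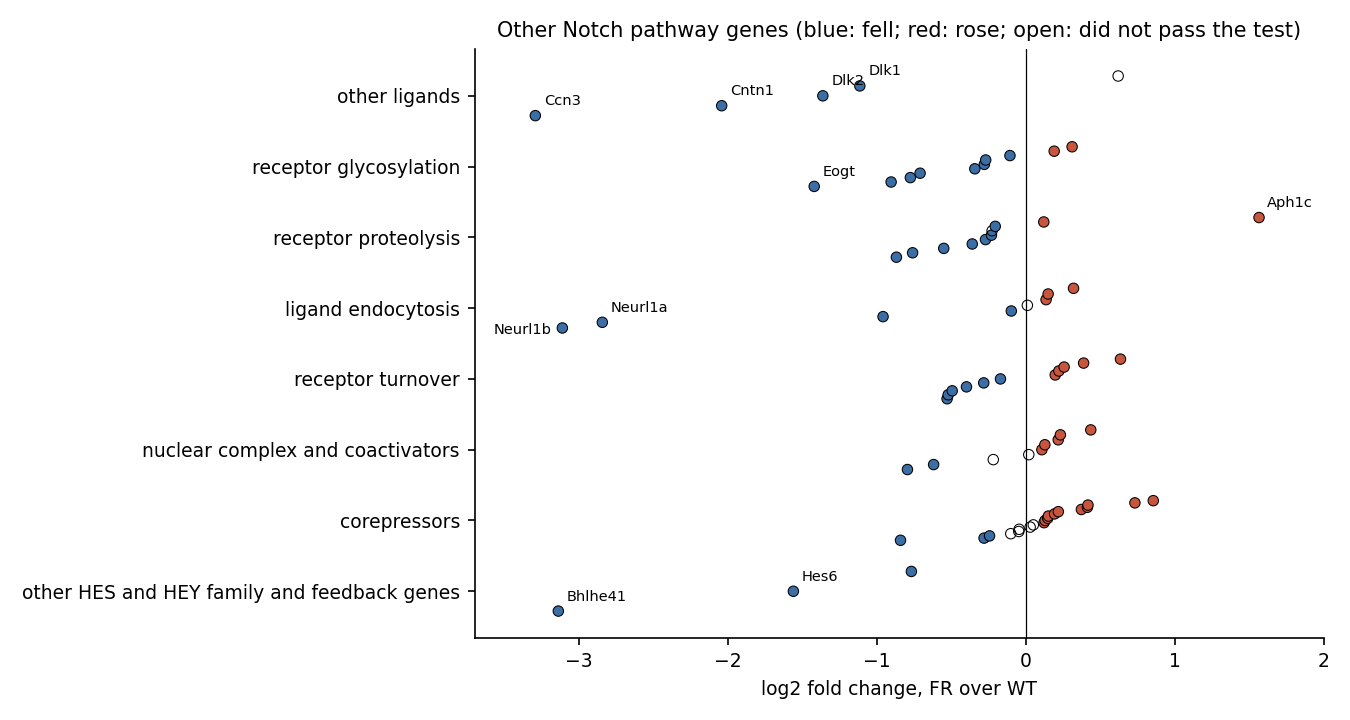
Log2 fold change of FR over WT (horizontal axis) for the 75 tested pathway genes in 8 lists (rows), with genes that fell in blue, genes that rose in red and genes that did not pass the test open, and names at changes of at least 2-fold. Most points lie within 1 unit of 0, and the 9 named falls stand against 1 named rise.

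The libraries held between 19246119 and 27140662 counts. Of the osteoblast markers, Alpl, Bglap and Ibsp were at 3 counts or fewer in every library. The summed level of the 10 markers was between 17289.9 and 17608 CPM in WT and between 4848 and 4879 CPM in FR. Most of it was Col1a1 and Col1a2, with means of 5055 and 9282 CPM in WT and 635 and 3104 CPM in FR. Runx2 had a mean of 69.8 CPM in WT and 57.2 CPM in FR. Of 6 tested markers 6 were lower, where 35.5% of all tested genes were lower and 34.6% higher. The same background holds for the lists that follow. In bulk RNA, fewer cells of a type and less RNA per cell cannot be told apart. Notch3 is a gene of mural cells. The mural list summed to between 955 and 959.6 CPM in WT and between 445 and 455 CPM in FR. Of its 5 tested markers 3 were lower and 2 higher. From WT to FR, mean CPM went from 586 to 160 for Acta2, 205 to 98.5 for Cspg4 and 0.761 to 0.113 for Mcam. It went from 163 to 185 for Pdgfrb and 1.77 to 6.26 for Des. The defining genes Abcc9 and Kcnj8 were at 3 counts or fewer in every library. The part of this list in the Notch3 result was not tested. The endothelial list summed to between 4.27 and 4.73 CPM in WT and between 3.69 and 5.25 CPM in FR, with Kdr, Tie1, Erg and Sox17 at 3 counts or fewer in every library, and 1 of 3 tested markers lower and 1 higher. The macrophage list summed to between 19.0 and 21.2 CPM in WT and between 20.6 and 25.9 CPM in FR, with 1 of 4 tested markers lower and 2 higher. Of these, Csf1r was at 0.596 ± 0.204 CPM in WT and 7.13 ± 0.645 in FR, Cd68 at 0.467 ± 0.237 CPM in WT and 2.26 ± 0.121 in FR and Lyz2 at 6.15 ± 0.535 CPM in WT and 1.54 ± 0.196 in FR (SD, n = 3 each), while Adgre1, Itgam, Fcgr1, C1qa and Mrc1 were at 3 counts or fewer in every library.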

How the data were processed

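RNA-seq of 6 libraries (3 WT, 3 FR) was analysed. The authors deposited expected counts per gene, not scaled to depth, and a gene length; per the submitters' processing notes, fastp, HISAT and RSEM were used with the build GRCm39. Versions, settings and the annotation release are not given in the sources used here, nor is how the length was taken. The deposited group means were not used.

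Expected counts were rounded for the test. The count filter was filterByExpr of edgeR 4.0.16 (R 4.3.3; minimum count 10), scaled with TMM factors and tested by the robust quasi-likelihood F-test, FR against WT, with Benjamini-Hochberg adjustment over 14889 genes and a threshold of 0.05. SE is the log2 fold change divided by the root of F. TPM used the counts, unrounded, and deposited lengths. Shares were compared by exact two-sided permutation. Count ratios have exact 95% intervals from summed counts, which, like the limit of 3 counts, cover counting error only. Log2 CPM used a prior count of 2. Gene order came from GENCODE M21 (GRCm38), which held 99.8% of tested Ensembl identifiers. The test was tried on simulated counts.

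The members and lists were chosen with earlier results of these data known. All members are named. Of each pathway list the text names up to 3 called genes with the largest changes and a mean of at least 1 CPM, where these agree in sign also the oppositely changed gene whose adjusted p was lowest, and Rbpj. Cntn1, Mfap5, Mib2, Csf1r, Cd68, Lyz2, Hey2, Nrarp and Hes5, and the genes under the other observations, were named after their values were seen. So were the markers Col1a1, Col1a2, Runx2, Acta2, Cspg4, Mcam, Pdgfrb and Des. Lists for chondrocytes (summed level 74.5 to 77.4 CPM in WT and 53.9 to 56.0 CPM in FR, with 3 of 5 tested markers lower and 1 higher), adipocytes (at most 2.24 CPM) and epithelium (at most 1.45 CPM) were also read. Alternatives were median-of-ratios factors, library size alone, no filter, a mean of at least 1 CPM, a non-robust fit, the replicate number as a block, DESeq2 1.42.0, limma-voom (limma 3.58.1), each library left out and, for shares, no division by length.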

Additional observations from a re-analysis of the deposited data

How the results depend on the processing

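Notch1, Notch2 and Jag1 were called lower under all 14 alternatives, and Notch3 and Dll1 under the 13 that tested them. Their log2 fold changes ranged from −4.17 to −4.01 for Notch1, −0.64 to −0.59 for Notch2, −4.23 to −3.73 for Notch3, −1.08 to −0.94 for Jag1 and −2.70 to −2.36 for Dll1. With a filter at a mean of 1 CPM, 3 members were called lower, since Notch3 and Dll1 were not tested there. Hes1 was called under none, and its log2 fold change ranged from −0.19 to 0.13 with each library left out, above 0 without WT3 (0.13) and without FR1 (0.08). With each library left out, 5 members were called lower and none higher, with 5121 to 5306 of all genes lower and 4776 to 4915 higher, and 36 to 38 pathway genes lower and 26 to 29 higher. Leaving out a library moved the difference in share, FR minus WT, between −10.2 and −9.83 percentage points for Notch1, 10.6 and 10.9 for Notch2, −1.09 and −0.820 for Notch3, 0.116 and 0.172 for Notch4, 3.08 and 4.34 for Jag1, −4.09 and −2.94 for Dll1 and −0.465 and 0.0745 for Jag2, whose sign is thus not determined. Without division by length the differences were −9.13 for Notch1, 9.75 for Notch2, 0.0909 for Notch4 (0.147 with it), 2.51 for Jag1 (3.77) and −2.41 for Dll1 (−3.67). Same-numbered libraries did not deviate together (correlations across genes between −0.0305 and −0.00456, and 0 of 6 libraries correlated best with their own number). With the replicate number as a block, 5222 genes were lower and 5070 higher, against 5283 and 5157, and the calls of the 6 tested members did not change. Depth limits Notch4, Jag2, Hey1 and Heyl most.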

Other observations

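Among the pathway genes with too few counts for the test, the delta-like ligand genes Dll3 and Dll4 and the Fringe gene Mfng had more counts in each FR library than in each WT library, the opposite of Dll1. For the other untested pathway genes the counts of the groups overlapped or were 0 in all libraries. Of all tested genes, 72.4% had CPM ranges that did not overlap, in either direction, so separated groups are common among genes with enough counts. That share does not cover genes with counts as low as those of Dll3, Dll4 and Mfng. Dll4, a ligand best known from vessels, was counted 2, 3 and 1 times in the WT libraries and 6 times in each FR library. Its ratio of FR to WT was 3.61, with an exact 95% counting interval from 1.37 to 11.1. Dll3, which acts in the cell that makes it rather than as an activating ligand, was counted 2, 0 and 0 times in the WT libraries and 3, 10 and 4 times in the FR libraries (ratio 10.2, interval 2.43 to 91.2). Mfng was counted 1, 1 and 0 times in the WT libraries and 2, 3 and 3 times in the FR libraries (ratio 4.81, interval 0.960 to 46.5). With no filter on low counts, edgeR gave adjusted p = 0.0114 for Dll3, 0.0883 for Dll4 and 0.239 for Mfng. At most 10 counts in a library stand behind these ratios, and the genes were picked after their counts were seen.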
